A study of Mus musculus with 22 samples.

Results

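Round spermatids (RS) are the haploid germ cells that meiosis leaves, and their small RNA was compared between GRTH knock-in (KI) and wild-type (WT) mice. The comparison took 12 of the 22 libraries of the series, 6 from KI and 6 from WT, which the labels place together in the second experimental batch, and every mature miRNA name in the table of counts. Of 1966 names, 1060 had a count in these 12 libraries and 387 had enough counts to be tested. GRTH (DDX25) is a DEAD-box RNA helicase of Leydig cells and male germ cells. WT mice carried the unaltered gene, and KI mice carried a human GRTH gene with a missense change that removes the phosphorylated form of the protein and leaves the other form in place. KI mice are sterile, and their RS do not complete spermiogenesis, the remodelling of RS into sperm. Mice of both groups were 75 to 85 days old, and no treatment is given. RS were obtained from testes of both genotypes by collagenase and trypsin digestion and sedimentation through a gradient of bovine serum albumin. The study checked the purity of the RS fractions by DAPI staining and reports it as high. The strain and whether each library is a separate mouse are not given in the sources used here, and the number of samples in the study's methods differs from the 6 libraries per group, so the p-values measure the spread between these libraries, which may be technical. The knock-out (KO) of GRTH and its own WT mice, in the other 10 libraries, served only for the comparison of effects at the end.

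miRNAs are cut from hairpin precursors by Drosha and Dicer, and the product of either side of the hairpin (5p or 3p) can be loaded on an Argonaute protein. The loaded miRNA finds mRNAs mainly through its seed, the bases 2 to 8 from its 5′ end. RS store many mRNAs for later translation, in part in the chromatoid body, a granule beside the nucleus where GRTH and proteins of the miRNA pathway are found. miRNAs of the miR-34 and miR-449 families and of a cluster on the X chromosome are known to be abundant in male germ cells.

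The mature sequences of some of the miRNAs described below are shown first, chosen to take in the largest fall and rise and 1 or more members of the hairpins, clusters and cell types that the results turn on. They are not the largest changes in order. They are from RefSeq (GRCm38.p6), 5′ to 3′, with the seed in capitals, and 310 of the 387 tested names had a sequence there. Among those that fell are:
miR-3068-3p: gGUGAAUUgcaguacuccaaca
miR-138-5p: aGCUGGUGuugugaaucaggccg
miR-140-3p: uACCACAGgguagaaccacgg
miR-34a-5p: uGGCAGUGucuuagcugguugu
miR-202-3p: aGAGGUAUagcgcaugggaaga
miR-132-5p: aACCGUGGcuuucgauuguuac
miR-183-5p: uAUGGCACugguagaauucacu
Among those that rose are:
miR-7b-5p: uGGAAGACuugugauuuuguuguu
miR-196a-5p: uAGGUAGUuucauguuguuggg
miR-223-3p: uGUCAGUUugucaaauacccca
miR-10b-5p: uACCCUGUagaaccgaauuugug
miR-127-3p: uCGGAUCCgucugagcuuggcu
miR-199a-3p: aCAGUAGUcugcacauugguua
miR-322-5p: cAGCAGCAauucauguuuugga

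Total counts were 2067322 to 3239357 per library in WT and 2107461 to 3101145 in KI. Levels below are CPM (counts set relative to the library total) by the TMM method, which equalises libraries over the bulk of the miRNAs, and 3 counts corresponded to 0.926 to 1.45 CPM. Levels are relative to all miRNA counts of a library. The label RS was looked at through miRNAs only, since mRNA markers of spermatids are not in this assay. The germ-cell markers taken cover meiotic and post-meiotic cells together, so they cannot tell RS from cells in meiosis. Markers of meiotic and post-meiotic germ cells, led by miR-34c-5p, summed to 348011, 360335 and 376281 CPM (lowest, median and highest of 6) in WT and to 309343, 336606 and 352944 CPM in KI. Markers of other cells were present at lower levels, and those that moved with genotype are given beside the results they touch.

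Of the 387 miRNAs, 147 (38%) differed between KI and WT, 70 (18.1%) higher and 77 (19.9%) lower in KI. A group of miRNAs with shares near these is not a result about the group. A difference was called where the Benjamini-Hochberg adjusted p of the quasi-likelihood test in edgeR was below 0.1, and a value in brackets after the name of a miRNA is its log2 fold change of KI over WT. KI and WT libraries did not overlap for 56 miRNAs (14.5%), 21 of those called higher and 35 of those called lower. The median size of the change was 0.55 on the log2 scale among the rises and 0.37 among the falls. Changes of more than 1 on that scale were found for 3 of the rises and 5 of the falls, and changes under 0.25 for 7 and 13. The balance of directions depended on the scaling: with library totals alone, 96 were higher and 53 lower. In each of the 12 fits that left out 1 library, 103 of the 147 were called, 49 higher and 54 lower. The miRNAs at the top of the abundance range moved least, as the plot of fold change against abundance shows. Of the 7 miRNAs above 10000 CPM, 2 were called, with a median size of 0.13, whereas of the 131 between 10 and 100 CPM 31 were higher and 23 lower, with a median size of 0.55. Smaller changes can be called at higher counts, so these sizes depend on depth as well as on the miRNA.

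**Figure D1:**
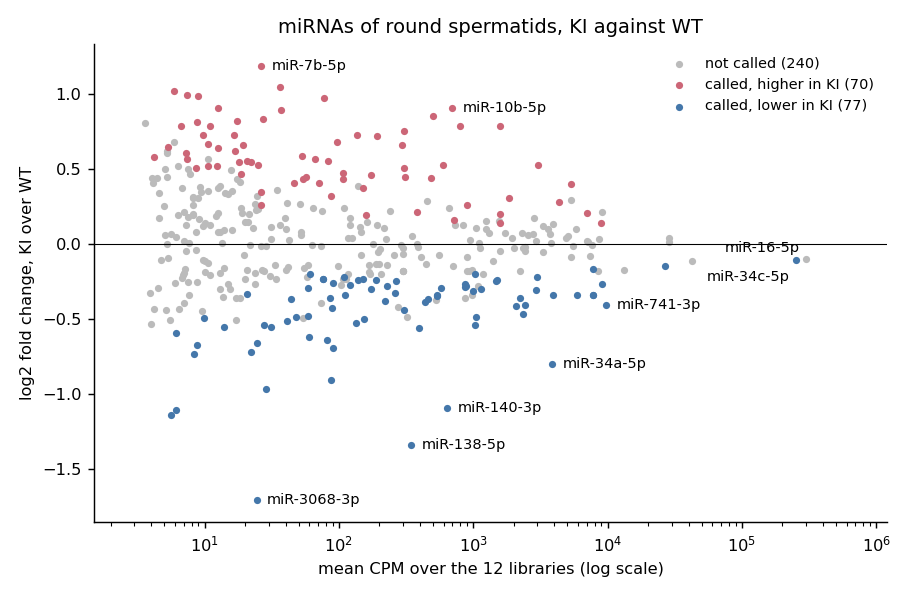
Log2 fold change of KI over WT for each of the 387 tested miRNAs against its mean CPM over the 12 libraries (log scale), with the 70 called higher, the 77 called lower and the 240 not called in separate colours. Changes beyond 1 in either direction lie below 1000 CPM, and the 2 most abundant miRNAs, miR-16-5p and miR-34c-5p, lie at -0.10 and -0.11.

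miR-16-5p, a repressor of cyclins in many cells, was at 290913, 313358 and 324867 CPM in WT (lowest, median and highest of 6) and at 261161, 287945 and 319118 CPM in KI. Its groups overlapped, and its log2 fold change of -0.10 ± 0.05 (SE, adjusted p = 0.106 by edgeR) was not called, although it was called with the replicate block (adjusted p = 0.0245 by edgeR) and without KI replicate 6 or WT replicate 3. miR-34c-5p, of the germ-cell family named above, was at 256599 to 272316 CPM (median 260760.0) in WT and 221539 to 259697 CPM (median 246272) in KI. The libraries overlapped here too, and the fall of -0.11 ± 0.04 (SE, adjusted p = 0.0271 by edgeR) was small and was lost with library totals alone (-0.03, adjusted p = 0.307 by edgeR), without the filter on low counts, without both libraries numbered 2, and without KI replicate 1, KI replicate 5 or WT replicate 2 (adjusted p = 0.109 to 0.209 by edgeR). Its cluster partner miR-34b-5p and the related miR-449a-5p were not called, with log2 fold changes of -0.12 and 0.04.

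miR-34a-5p of the same family, a target of p53 that represses cell cycle genes, is intergenic at chr4:150068473-150068494 (GRCm38) and had 3667, 5198 and 5507 CPM in the 6 WT libraries (lowest, median and highest). In KI it had 2419, 2835 and 3144 CPM, so that every KI library lay below every WT library. The log2 fold change was -0.80 ± 0.10 (SE, adjusted p = 7.31e-05 by edgeR). It shares the seed GGCAGUG with miR-34b-5p, miR-449a-5p and miR-449c-5p, and miR-449c-5p was not called either (-0.14). Whether the changes of the family members differ was not tested. Of the 8 tested names of the miR-34 and miR-449 families, 37.5% were called, near the 38% over all miRNAs. Among them 2 were lower and 1 higher, the scarce miR-449a-3p (0.52). With library totals alone 1 was lower and 3 higher.

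The largest fall was of miR-3068-3p, which lies at chr12:87437685-87437706 in an intron of Alkbh1, a demethylase of nucleic acids. The same place overlaps exons of the non-coding genes Gm29362 and Mir3068, and GENCODE types the latter as a snoRNA. miR-3068-3p was at 26.6 to 55.6 CPM (median 35.6) in WT and at 9.32 to 14.8 CPM (median 10.4) in KI, with no overlap. Its log2 fold change was -1.71 ± 0.20 (SE, adjusted p = 3.68e-05 by edgeR). It rested on 558 counts over the WT libraries and 177 over the KI libraries. miR-138-5p, which has loci at chr8:94324312-94324334 and chr9:122682898-122682920 in exons of the non-coding genes C78859 and Gm47135, was known first as a neuronal miRNA. Its WT libraries lay between 453 and 515 CPM and its KI libraries between 167 and 247 CPM. That fall of -1.34 ± 0.09 (SE, adjusted p = 2.27e-07 by edgeR) had the lowest adjusted p of all, and the table does not separate its loci.

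miR-140, a regulator of cartilage growth, is cut from a hairpin that overlaps an exon of the ubiquitin ligase gene Wwp2 on chromosome 8, and it fell in both of its products. miR-140-3p (chr8:107551288-107551308) was at 809 to 926 CPM (median 871) in WT and at 342 to 523 CPM (median 393) in KI. miR-140-5p (chr8:107551249-107551270) was at 108 to 129 CPM (median 113) and 51.9 to 69.2 CPM (median 61.5). Neither product overlapped between the groups, and the log2 fold changes were -1.10 ± 0.10 (SE, adjusted p = 3.17e-06 by edgeR) for 3p and -0.91 ± 0.09 (SE, adjusted p = 1.17e-05 by edgeR) for 5p. Both products of miR-202, a hairpin known from the somatic cells of the gonad, fell as well. miR-202-5p was at 71.8 to 142 CPM (median 118) in WT and 56.1 to 77.99 CPM (median 70.99) in KI and changed by -0.70 ± 0.15 (SE, adjusted p = 0.00393 by edgeR) on the log2 scale. miR-202-3p (chr7:139957695-139957716, in an exon of the non-coding gene Gm2044) was at 24.7 to 30.5 CPM (median 27.2) and 14.8 to 20.1 CPM (median 15.7) and changed by -0.73 ± 0.12 (SE, adjusted p = 0.000561 by edgeR) on the log2 scale.

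Where 19.9% of all miRNAs were lower, all 3 tested members of the miR-183, miR-96 and miR-182 cluster, known from sensory epithelia, fell together. Their summed level was 524, 583 and 670.4 CPM (lowest, median and highest) in WT and 346, 445 and 481 CPM in KI, with no overlap. miR-96-5p had a log2 fold change of -0.53 ± 0.13 (SE, adjusted p = 0.00724 by edgeR), miR-183-5p (chr6:30169711-30169732) of -0.50 and miR-182-5p of -0.38. Under every other scaling and in every fit without 1 library, the 3 stayed called. The other falls among the 12 largest were of miR-203-3p, a keratinocyte miRNA (-0.56), miR-132-5p, from a hairpin induced by CREB in neurons (-0.66), miR-361-3p, in an intron of the X-linked gene Chm (-0.54), miR-301b-3p (-0.52) and miR-470-5p (-0.54). Each lay lower in all 6 KI libraries than in any WT library, which was a condition for being among these 12. In the epithelial miR-200 and miR-141 family, 2 of 6 tested members fell (33.3%, where 19.9% of all miRNAs were lower) and none rose. miR-200c-3p had a log2 fold change of -0.49 ± 0.11 (SE, adjusted p = 0.00574 by edgeR) and miR-141-3p of -0.30. With library totals alone, without the filter on low counts or without both libraries numbered 2, only 1 of the 6 was lower.

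**Figure D2:**
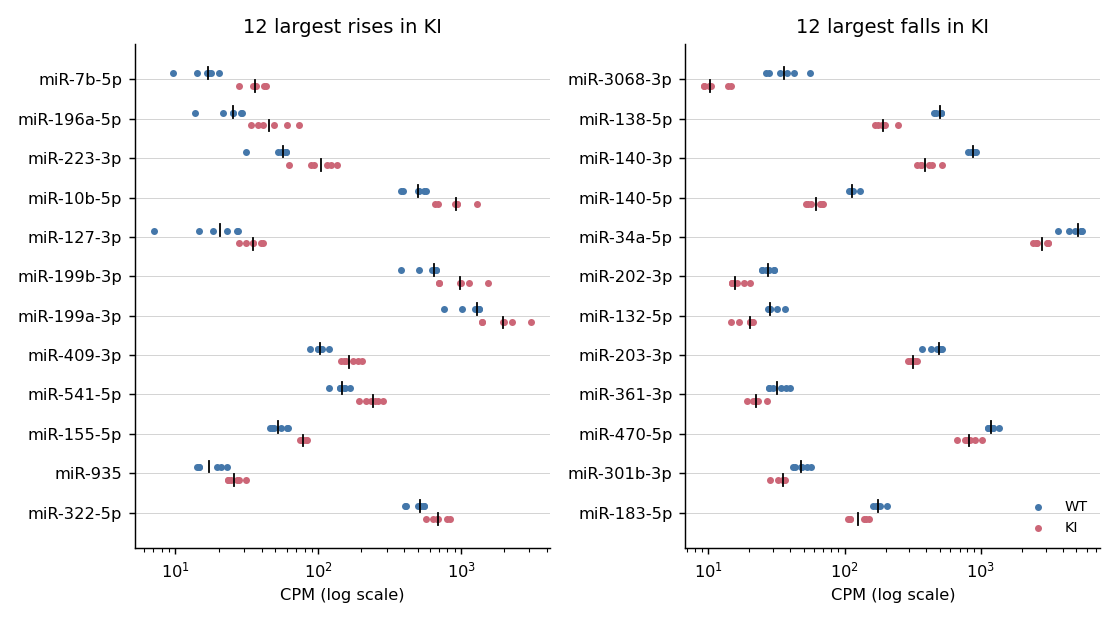
CPM (log scale) of the 12 largest rises (left) and 12 largest falls (right) among called miRNAs whose groups do not overlap and whose mean level is 10 CPM or more, with 1 point per library for 6 WT and 6 KI libraries and a bar at each group's median. The widest gap in the falls is that of miR-138-5p, with WT at 453 CPM or more and KI at 247 or less.

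The broadest fall was in the testis-enriched cluster of the X chromosome near Fmr1. These miRNAs are known to be made in spermatocytes and spermatids, although most X-linked genes are silenced in meiosis. Of 32 tested members, 22 (68.8%) were lower in KI, where 19.9% of all miRNAs were, and none was higher. The median log2 fold change was -0.32, where the median over all 387 miRNAs was 0.00. Summed over the members, the level was 56032, 58218 and 60509 CPM (lowest, median and highest) in WT and 44795, 45746 and 47933 CPM in KI. The highest KI library lay well below the lowest WT library. With other scalings 17 to 22 of the 32 were lower, without any 1 library 20 to 22, and without both libraries numbered 2 it was 21, and no member was called higher in any of these fits. miR-465a-3p, miR-465b-3p and miR-465c-3p share 1 mature sequence, and their counts stayed in a fixed ratio to each other, so they are not separate results. With the names of 1 sequence counted once, 19 of 30 were lower.

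Most of the members lie in 2 runs on the minus strand. miR-201-3p, which was lower (-0.56), and miR-547-3p, which was not called, lie in neither. In the run at chrX:66776760-66814017, 17 of 24 tested names were lower, and in the run at chrX:66825965-66839121, which holds miR-465, 4 of 6. miR-741-3p, the most abundant member, was at 10080.3 to 11408 CPM (median 11116) in WT and at 8110.4 to 8705 CPM (median 8222) in KI. It did not overlap and fell by 0.41 ± 0.04 on the log2 scale (SE, adjusted p = 1.17e-05 by edgeR). miR-743a-3p was at 2462 to 2889.7 CPM (median 2818) in WT and 1609 to 2432 CPM (median 1989) in KI, and its log2 fold change was -0.47 ± 0.10 (SE, adjusted p = 0.00252 by edgeR). miR-880-3p and miR-470-5p changed by -0.41 and -0.54, and miR-742-3p, at only 9.605 CPM in WT and 6.25 CPM in KI (medians), by -0.74. Members that were not called included the 5p products miR-465c-5p (-0.05), miR-465b-5p (0.10) and miR-471-5p (-0.01).

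Outside this cluster the 27 other tested names of the X had 5 lower and 4 higher, with 33.3% called and a median of -0.04. Over all 59 tested names with loci on the X alone, 27 were lower and 4 higher, with a median of -0.26, and among 325 names on autosomes alone 50 were lower and 66 higher, with a median of 0.04. In the cluster of miR-322 and miR-503 on the X, which is known to block cell cycle progression, 2 of 9 tested names were higher and none lower, 22.2% against the 18.1% called higher over all miRNAs. miR-322-5p (chrX:53054306-53054327) was at 402 to 553 CPM (median 510.3) in WT and 567.6 to 836 CPM (median 683) in KI and changed by 0.52 ± 0.11 (SE, adjusted p = 0.00315 by edgeR) on the log2 scale. In the cluster of miR-532 and miR-362, also on the X, 2 of 5 names were lower (40%, where 19.9% of all miRNAs were).

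The largest rise was of miR-7b-5p, a brain and pituitary miRNA that is intergenic at chr17:56243017-56243040. It was at 9.58 to 20.2 CPM (median 16.8) in WT and 27.96 to 43.1 CPM (median 36.2) in KI, and the log2 fold change was 1.19 ± 0.16 (SE, adjusted p = 0.000103 by edgeR). In the Hox clusters, 2 of 4 tested miRNAs rose (50%, where 18.1% of all miRNAs were higher). miR-196a-5p, with loci at chr11:96265187-96265208 and, in an intron of Hoxc5, at chr15:102973365-102973386, was at 13.6 to 29.2 CPM (median 25.2) and 33.8 to 73.4 CPM (median 44.9) and changed by 1.05 ± 0.21 (SE, adjusted p = 0.00254 by edgeR) on the log2 scale. miR-10b-5p, in introns of Hoxd3 and Hoxd4 at chr2:74726074-74726096, was at 378 to 567 CPM (median 502) and 654 to 1289 CPM (median 917) and changed by 0.90 ± 0.16 (SE, adjusted p = 0.000886 by edgeR) on the log2 scale. Its sister miR-10a-5p was not called (0.15). No KI library overlapped a WT library for miR-7b-5p, miR-196a-5p and miR-10b-5p, which was a condition for naming them among the largest rises.

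The imprinted cluster between Dlk1 and Dio3 on chromosome 12, whose miRNAs are expressed from the maternal copy and known from brain, muscle and stem cells, held 19 tested names of 108 in the table. Of these, 10 (52.6%) were higher, where 18.1% of all miRNAs were, and none was lower, with a median of 0.66. The summed level was 393, 425 and 458 CPM (lowest, median and highest) in WT and 615, 668 and 754 CPM in KI, with no overlap. miR-409-3p (chr12:109743204-109743225, inside an intron of Mirg, a non-coding gene) was at 87.8 to 119 CPM (median 102) in WT and 144 to 202 CPM (median 165) in KI and changed by 0.72 ± 0.10 (SE, adjusted p = 0.000162 by edgeR) on the log2 scale. miR-541-5p (chr12:109742422-109742446, also in Mirg) changed by 0.72 ± 0.11 (SE, adjusted p = 0.000272 by edgeR), and miR-127-3p (chr12:109592888-109592909), which lies antisense to the imprinted gene Rtl1, by 0.83 ± 0.23 (SE, adjusted p = 0.0167 by edgeR). The cluster is nonetheless a minor part of the small RNA, and most of its members were measured on under 20 CPM in WT. With other scalings 10 or 11 members were higher, and without any 1 library 8 to 12.

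Lists of miRNAs known from cells other than germ cells moved in different directions. Where 18.1% of all miRNAs were higher, the blood and immune list had 6 of 8 higher, the list of vessels and stroma 8 of 13, muscle 0 of 4, and the gonadal somatic list 3 of 13 with 4 lower. Of 8 tested names of the blood and immune list, 6 were higher and none lower, with a median of 0.54. miR-142a-3p, a miRNA of all blood lineages, was the most abundant, at 2172 to 2811 CPM (median 2503) in WT and 2776 to 4425 CPM (median 3663) in KI and changed by 0.52 ± 0.10 (SE, adjusted p = 0.00175 by edgeR) on the log2 scale. miR-223-3p of myeloid cells (chrX:96242884-96242905) was at 31.3 to 59.5 CPM (median 56.9) in WT and 62.3 to 135 CPM (median 104) in KI and changed by 0.97 ± 0.19 (SE, adjusted p = 0.00201 by edgeR) on the log2 scale. miR-155-5p, in an exon of Mir155hg, of activated lymphocytes and macrophages, changed by 0.56, miR-146a-5p, a brake on innate immune signalling, by 0.75, and miR-150-5p of mature lymphocytes by 0.90. The erythrocyte miRNA miR-451a was not called (0.11, adjusted p = 0.78 by edgeR), and of the erythroid miR-144 the 3p product was at 0 counts in all 12 libraries, while miR-144-5p had 238 counts over them and was not called (0.46, 5.74 CPM in WT and 9.73 CPM in KI, medians). The summed blood and immune markers were at 2909, 3295 and 3674 CPM in WT and 3678, 4861 and 5708 CPM in KI (lowest, median and highest), with the lowest KI library just above the highest WT library.

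Among 13 tested names of endothelium, smooth muscle and stroma, 8 were higher and 1 lower, with a median of 0.58. miR-199a-3p, a stromal miRNA hosted in part by Dnm3os, was at 762 to 1339.8 CPM (median 1284) in WT and 1389 to 3091 CPM (median 1972) in KI and changed by 0.78 ± 0.19 (SE, adjusted p = 0.00724 by edgeR) on the log2 scale. miR-199b-3p has the same mature sequence, and the counts of miR-199a-3p were 2 times its counts in every library, to within 2%, so these names are 1 result. miR-143-3p and miR-145a-5p of smooth muscle changed by 0.58 and 0.52. The endothelial miR-126a-3p was not called (-0.04), and miR-100-5p fell by 0.64 ± 0.16 on the log2 scale (SE, adjusted p = 0.00766 by edgeR). The summed markers of these cells were at 7996, 11611 and 12619 CPM in WT and 10279, 14056 and 17659.9 CPM in KI, which overlapped. The 4 tested names of skeletal and heart muscle were not called, with a median of -0.22, and both libraries numbered 2 were low in them. With the replicate block 2 of the 4 were lower, and without both libraries numbered 2 it was 1. In preparations that are enriched for RS and sequenced in bulk, more cells of a type and more of its RNA per cell cannot be told apart. Over all miRNAs 18.1% were higher and 19.9% lower. For blood, 6 of 7 tested markers were higher in KI, and for vessels and stroma 6 of 10, with 1 lower. Of 9 germ-cell markers 5 were lower and none was higher. The lower ones were miR-741-3p, miR-743a-3p, miR-880-3p and miR-871-3p of the X-linked cluster, and miR-34c-5p, whose call was lost with library totals alone. The other markers of the miR-34 and miR-449 families were not called. Both miR-202 products, the only markers taken for gonadal somatic cells, were lower. In the wider list of 13 names linked to such cells directions were mixed, with 3 higher, miR-30a-3p (0.43), miR-24-3p (0.32) and miR-30d-3p (0.62), 4 lower and a median of 0.06, and with library totals alone 6 were higher and 3 lower. The part of such cells in the rises and falls described here was not tested.

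**Figure D3:**
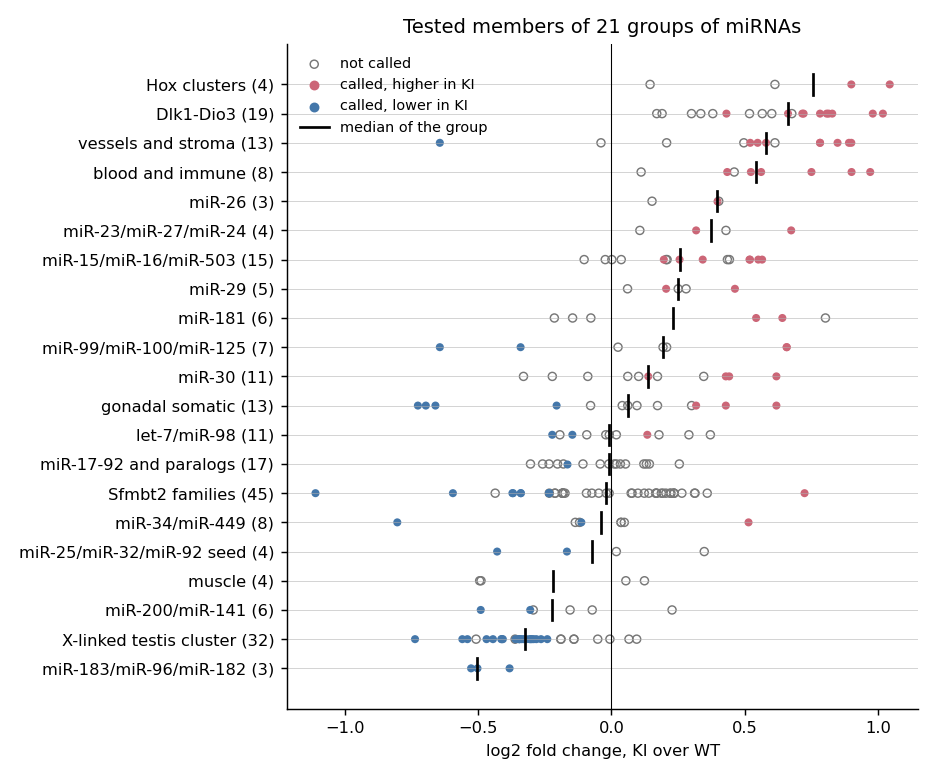
Log2 fold change of KI over WT for each tested member (number in brackets) of 21 groups of miRNAs, ordered by group median (bar), with called members filled and the others open; some miRNAs are in more than 1 group. The X-linked testis cluster (median -0.32) and the miR-183 cluster (-0.50) have calls on the lower side alone, and the Dlk1-Dio3 cluster (0.66), the Hox clusters (0.76) and the blood and immune group (0.54) on the higher side alone.

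**Figure D4:**
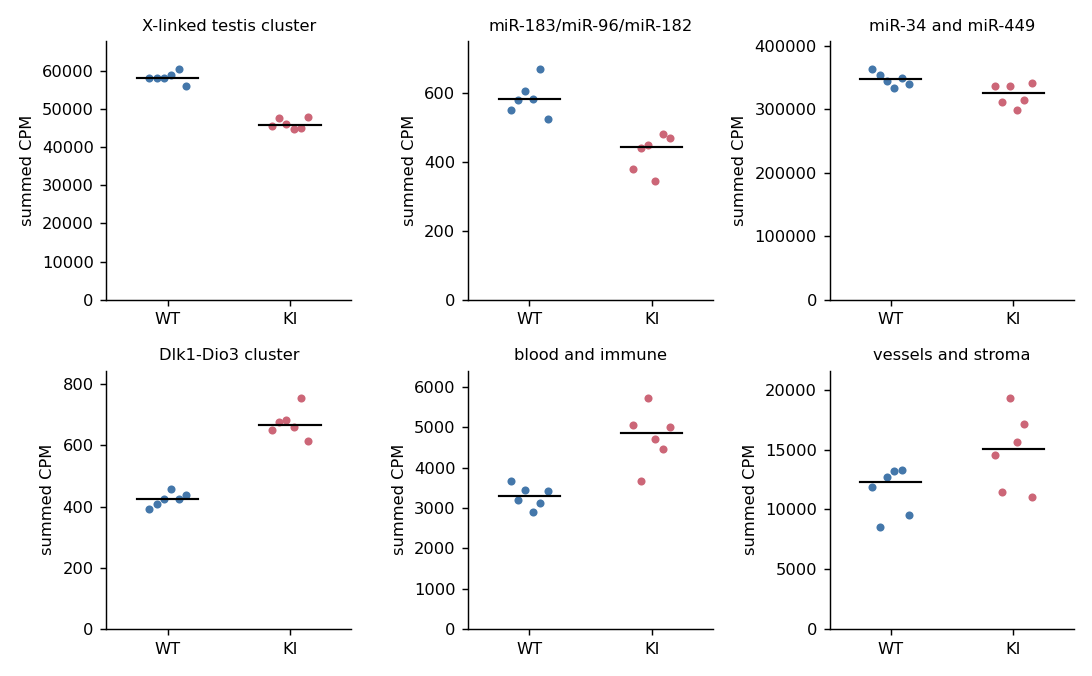
Summed CPM of the tested members of 6 groups, with 1 point per library for 6 WT and 6 KI libraries, a bar at the median and axes from 0. The X-linked testis cluster and the miR-183 cluster are lower in every KI library than in any WT library, the Dlk1-Dio3 cluster and the blood and immune group are higher, and the miR-34 and miR-449 group and the group of vessels and stroma overlap.

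Families shared across many tissues moved little or in part. Over all miRNAs 18.1% were higher and 19.9% lower, the shares beside which the counts here and in the next paragraph stand. Many of these families have few tested names, and none was tested as a set. Among the 15 tested names of miR-15, miR-16 and relatives with miR-503, 7 were higher and none lower (46.7% called), with a median of 0.26. Without KI replicate 4 it was 4 and without the filter on low counts 3, and 1 was lower without KI replicate 6 or WT replicate 3. These rises left out miR-16-5p, which holds most of the counts of the family. miR-322-5p, miR-15a-5p (0.20) and miR-497a-5p (0.26), which share the seed AGCAGCA with it, rose, as did scarce 3p products such as miR-15b-3p (0.55) and miR-503-3p (0.57). In the miR-30 family, known from epithelial differentiation, 4 of 11 were higher and none lower (36.4% called, 7 higher with library totals alone), led in size by miR-30d-3p (0.62). miR-26a-5p, which represses Ezh2 and lies in Ctdsp genes, rose by 0.40 ± 0.06 on the log2 scale (SE, adjusted p = 0.000561 by edgeR), and 2 of 4 tested names of the miR-23, miR-27 and miR-24 clusters rose, miR-23a-3p by 0.68 and miR-24-3p by 0.32. miR-29a-3p, a repressor of collagens, rose by 0.21 on the log2 scale, with 2 of 5 members of its family (40%) higher. In the miR-181 family of lymphoid cells 2 of 6 (33.3%) were higher. Without 1 library the count of rises was 1 to 3 in both of these families, 1 in the miR-29 family without KI replicate 1, 3 or 4 or WT replicate 2, 5 or 6, and 1 in the miR-181 family without KI replicate 3.

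The let-7 family, which opposes proliferation, had 1 rise and 2 falls among 11 tested names, and the miR-17-92 cluster and its paralogs, which promote it, had 1 fall among 17. The medians of both were -0.01 and turned positive with library totals alone, by RLE size factors and in DESeq2, so no direction can be given for them. let-7a-5p, the most abundant let-7, fell by 0.15 ± 0.04 on the log2 scale (SE, adjusted p = 0.022 by edgeR), a call lost with library totals alone, without the filter on low counts, and without KI replicate 1, WT replicate 2 or WT replicate 6 (adjusted p = 0.103 to 0.239 by edgeR). Among the 4 names with the seed AUUGCAC, miR-25-3p (-0.17) and miR-32-5p (-0.43) fell, both calls that library totals alone did not give. Without 1 library 1 or 2 of the 4 were lower, and in most of these fits only 1. It was also 1 without the filter on low counts or without both libraries numbered 2. The families miR-99, miR-100 and miR-125 had 2 rises and 2 falls among 7 names, and the seed ACCCGUA within them split, with miR-99a-5p higher (0.66) and miR-99b-5p and miR-100-5p lower (-0.34 and -0.64). The families miR-297, miR-466, miR-467 and miR-669, mostly in an intron of Sfmbt2, had 1 rise and 9 falls among 45 names, with a median of -0.02 that turned with library totals alone (5 rises and 3 falls). Without 1 library there were 1 to 5 rises and 3 to 12 falls, with 5 rises without KI replicate 2, and 3 to 5 falls without KI replicate 1 or 5 or WT replicate 1 or 5. Copies within these families share reads, so their names are uncertain.

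Calls within genomic clusters and seed families were counted by direction. Of 21 clusters with at least 4 tested names whose loci lie within 10000 bases of the next, 15 had calls in 1 direction only, 1 had calls in both and 5 had none. Of 15 seeds shared by at least 3 tested names, 9 had calls in 1 direction only, 4 in both and 2 had none. A group with only 1 call has 1 direction by construction, and many of the groups with 1 direction had only 1 call. The names miR-465a-3p, miR-465b-3p and miR-465c-3p, counted as a seed, are 1 sequence. So these counts do not show that relatives move together. The groups differ in size and overlap, and no test was made. Among called names with a RefSeq sequence, the first base was U in 46.7% of 60 that rose, 61.9% of 63 that fell and 51% of all 310, and G in 3.33%, 17.5% and 9.03%. The median GC content was 44.7%, 45.5% and 45.5%.

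The 5p and 3p products of a hairpin come from 1 precursor, so a change in their ratio is not a change in the amount of the precursor alone. The ratio also does not depend on library scaling. Of 103 hairpins with both products tested, 20 (19.4%) changed their ratio by the same test and threshold, 11 towards 5p and 9 towards 3p. Leaving out 1 library moved this count between 11 and 26, and 10 hairpins were called in all 12 such fits. Without both libraries numbered 2 it was 17. In 18 hairpins both products were called on their own, and in all 18 they moved the same way, 9 up and 9 down. These are not 18 separate results. miR-199a and miR-199b, both up, share their 3p sequence. miR-743b, miR-878, miR-883a, miR-883b, miR-463 and miR-465a, all down, are of the X-linked cluster. Across the 103 hairpins the fold changes of 5p and 3p had a Pearson's r of 0.61, a description, since both come from the same libraries.

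miR-3068 had the lowest adjusted p for a change in ratio among hairpins with 1 locus. Its 5p product had a log2 fold change of -0.48 ± 0.13 (SE, adjusted p = 0.0143 by edgeR), against -1.71 for 3p, and the log2 ratio of 5p to 3p counts was -0.24 to 1.42 in WT and 1.60 to 2.67 in KI. The ranges did not overlap, and the change was 1.22 ± 0.27 (SE, adjusted p = 0.0148 by edgeR). miR-465b and miR-465c of the X-linked cluster moved towards 5p by 0.43 ± 0.10 (SE, adjusted p = 0.0148 by edgeR) and 0.29, with a fall of 3p and no call of 5p, although the 3p names share reads. miR-669a moved towards 5p by 0.56, but has more than 10 loci.

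A number of hairpins moved towards their scarcer 3p product. miR-30e moved by -0.30 ± 0.08 (SE, adjusted p = 0.0331 by edgeR), with 5p at 8411 CPM in WT and 9215 CPM in KI and 3p at 261 CPM in WT and 359.7 CPM in KI (medians). miR-30a moved by -0.37, and its 3p product rose by 0.43 ± 0.09 on the log2 scale (SE, adjusted p = 0.00252 by edgeR) while 5p was not called (0.06). miR-15b moved by -0.56 ± 0.16 (SE, adjusted p = 0.0362 by edgeR), with 3p at 16.02 CPM in WT and 23.9 CPM in KI and 5p at 3809 CPM in WT and 3837 CPM in KI. miR-181c moved by -0.79, with its 3p product at 4.58 CPM in WT and 5.995 CPM in KI, close to the limit set by depth. In miR-132 the move of -0.58 ± 0.18 (SE, adjusted p = 0.0467 by edgeR) came with a fall of 5p (-0.66) and no call of 3p (-0.08), and it was called in 11 of the 12 fits that left out 1 library but not without both libraries numbered 2.

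**Figure D5:**
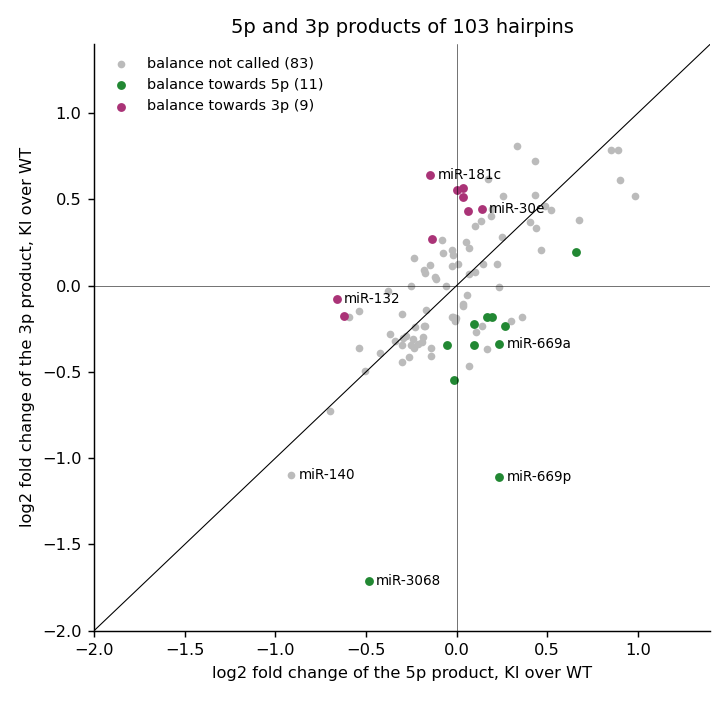
Log2 fold change of KI over WT of the 3p product against that of the 5p product for 103 hairpins, with the line of equal change and with hairpins whose ratio changed in colour (11 towards 5p, 9 towards 3p). miR-140 lies near the line at -0.91 and -1.10, and miR-3068 lies below it at -0.48 and -1.71.

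The KI effect was then set against the KO effect, where GRTH is absent and WT mice of the first batch are the controls, to see where KI differs. In the KO comparison 140 of 334 miRNAs (41.9%) were called by the same test. Its libraries were shallower, at 559957 to 881323 counts in KO and 870913 to 1081333 in its WT. In the KI batch all had 2067322 counts or more. A lack of calls for the difference is therefore not evidence that the effects are equal. For the difference of the effects, 0 of 421 miRNAs (0%) were called by edgeR, 67 had an unadjusted p under 0.05, and DESeq2 also called 0 with 71 under 0.05. The count reached 26 without KI replicate 2 and 1 without WT replicate 1 of the KI batch, and was 0 in the other fits without 1 library. With the replicate block 25 of 421 were called, 4 higher and 21 lower, with a lowest adjusted p of 0.0329 by edgeR, although the replicate numbers were not taken as pairs. Genotype of the mutant and batch cannot be told apart other than through each batch's own WT. miR-140-3p changed by -1.10 in KI and -1.16 ± 0.10 (SE, adjusted p = 2.22e-05 by edgeR) in KO, and miR-138-5p by -1.34 and -1.11 ± 0.19 (SE, adjusted p = 0.00183 by edgeR). Other named falls called in KO were miR-140-5p, miR-361-3p and miR-470-5p. Not called there were miR-34a-5p (-0.47 in KO), miR-202-3p (-0.52), miR-132-5p (-0.45), miR-203-3p (-0.16), miR-301b-3p (-0.26) and miR-183-5p (-0.22), with adjusted p = 0.105 to 0.632 by edgeR. All of these kept the direction they had in KI. Of the 12 largest named rises, all but miR-935 were called higher in KO too, with adjusted p = 6.27e-05 to 0.0927 by edgeR. miR-409-3p rose by 0.72 on the log2 scale in KI and 1.03 ± 0.11 (SE, adjusted p = 6.27e-05 by edgeR) in KO. miR-3068-3p had -1.71 in KI and -0.55 ± 0.37 (SE, adjusted p = 0.255 by edgeR) in KO, a difference of -1.15 ± 0.43 (SE, adjusted p = 0.202 by edgeR) that was not called. miR-935 had 0.54 in KI and 0.05 ± 0.20 (SE, adjusted p = 0.876 by edgeR) in KO, a difference of 0.50 ± 0.24 (SE, adjusted p = 0.311 by edgeR), which was not called either.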

How the data were processed

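The authors deposited raw counts per mature miRNA name for 22 RS libraries, all used. Groups are those of the labels, whose batch order, opposite to that of the study's methods, was followed. Per the labels and methods, reads were trimmed with cutadapt 3.4, aligned to GRCm38 (mm10) with Bowtie2 2.4.2 in local mode with many alignments kept per read, and counted by strand with featureCounts (Subread 2.0.1). Reads of near-identical miRNAs can thus count under several names or loci, and 82 of 1966 names had more than 1 locus.

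Counts were filtered by filterByExpr, scaled by TMM and fitted in edgeR 4.0.16 (R 4.3.3) by quasi-likelihood with genotype as the only term. Calls needed an adjusted p (Benjamini-Hochberg) below 0.1, as in the study, which used DESeq2 (1.42.0 here, as an alternative). The ratio of 5p to 3p was tested with both counts of a library as columns and the library as a block. Fits were tested on simulated data. Host genes are from GENCODE vM21. Other tools were limma 3.58.1, Python 3.11.15 with pandas 2.3.3, scipy 1.17.1 and numpy 2.4.6.

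The miRNAs and lists were chosen with earlier results of these data known. Named are the 12 largest rises and falls among called miRNAs whose groups do not overlap and whose mean level is 10 CPM or more, the 10 most abundant, and the called and the 4 most abundant members of each list. Lists are described by counts and medians, without a test. Floors of 3 counts cover counting error only. The transcript of GRTH is not a miRNA, and its level was not analysed here.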

Additional observations from a re-analysis of the deposited data

Results flagged for a closer look

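Each named miRNA and each sum of cell type markers was screened, on the scale log2(CPM + 1), for a library far from the other 5 of its group by Dixon's criterion. Of 80 combinations 5 met it, where chance gives about 4. WT replicate 6 was low in miR-223-3p, at 5.01 where the others lay between 5.74 and 5.92, and it was low in miR-741-3p, at 13.3 where the others lay between 13.4 and 13.5. WT replicate 4 was high in miR-140-5p, at 7.03 where the others lay between 6.77 and 6.86. The summed muscle markers were low in WT replicate 2, at 5.47 where the others lay between 8.12 and 9.37, and in KI replicate 2, at 5.43 where the others lay between 7.97 and 8.92. miR-223-3p, miR-140-5p and miR-741-3p were called in all 12 fits that left out 1 library.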

How the results depend on the processing

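The count of miRNAs called between KI and WT was 147 of 387. It was 153 by RLE size factors, 149 with library totals alone, 150 in DESeq2, 123 of 1060 without the filter on low counts and 138 of 310 with a mean of at least 10 CPM. It was 129 of 334 for names with 1 locus, and 127 to 173 without 1 library. Alternatives chosen after seeing the data gave 147 of 384 with names of 1 sequence counted once and 150 without both libraries numbered 2. The 24 named rises and falls kept their direction and were called under every alternative that gave a value. They had been chosen as called, with groups that do not overlap, so this stability was favoured by the choice. Among the 10 most abundant miRNAs, miR-34c-5p and let-7a-5p lost their calls without 1 library in 3 fits each, miR-16-5p, miR-93-5p and miR-191-5p gained one without 1 library and with the replicate block, and miR-19b-3p, with a log2 fold change of 0.01, was not called in any fit without 1 library, where it ranged from -0.0333 to 0.0604 and turned negative without KI replicate 3, KI replicate 4 or WT replicate 6. The difference of the KI and KO effects, 0 of 421, was 0 to 26 without 1 library. The count of hairpins with a changed ratio, 20, was 21 of 102 with a higher minimum, 19 in limma, and 11 to 26 without 1 library, and it fell below 14 without KI replicate 1, 3, 4 or 5 or WT replicate 2, 4 or 6. The cause of these changes was not tested. Replicate numbers were shared by KI and WT libraries, but their deviations correlated between -0.12 and 0.54, and 3 of 6 KI libraries correlated best with the WT library of the same number, so the numbers were not taken as pairs. With the replicate block, 165 miRNAs were called between KI and WT, 25 for the difference of the effects, and 20 hairpins in limma. At this depth miRNAs under about 1 CPM could not be seen, and 22.1% of the tested miRNAs under 10 CPM were called.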

Other observations

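These miRNAs were chosen after their values were seen. Close relatives moved in opposite directions in some families. miR-103-3p, with copies in Pank2 and Pank3, had 10070.3 CPM in WT and 8063 CPM in KI (medians) and fell by 0.27 ± 0.08 on the log2 scale (SE, adjusted p = 0.0182 by edgeR), a call lost without KI replicate 1, while its relative miR-107-3p had 90.4 CPM in WT and 124 CPM in KI and rose by 0.47 ± 0.08 on the log2 scale (SE, adjusted p = 0.000744 by edgeR) with no overlap between groups. With the shared seed CAGUGCA, miR-148b-3p fell by 0.24 ± 0.05 on the log2 scale (SE, adjusted p = 0.00431 by edgeR) and miR-148a-3p rose by 0.30 ± 0.09 on the log2 scale (SE, adjusted p = 0.0222 by edgeR). With the shared seed AGUGCAA, miR-301a-3p fell by 0.27 ± 0.08 on the log2 scale (SE, adjusted p = 0.0221 by edgeR) and miR-130b-3p rose by 0.37 ± 0.09 on the log2 scale (SE, adjusted p = 0.00829 by edgeR), as did miR-130b-5p (0.40). Differences between relatives were not tested.

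miR-375-3p, known from pancreatic islets and other endocrine cells, was at 3642 to 4173 CPM (median 3939.7) in WT and 4327 to 5341 CPM (median 4753) in KI and rose by 0.28 ± 0.05 on the log2 scale (SE, adjusted p = 0.00235 by edgeR). miR-342-3p, in the host gene Evl, was at 1134 to 1349 CPM (median 1202) in WT and 725 to 999.6 CPM (median 871) in KI and fell by 0.49 ± 0.08 on the log2 scale (SE, adjusted p = 0.000744 by edgeR). Neither overlapped between groups. Below 10 CPM, miR-139-5p rose by 0.99 ± 0.21 on the log2 scale (SE, adjusted p = 0.00301 by edgeR) and miR-1198-5p fell by 1.15 ± 0.26 on the log2 scale (SE, adjusted p = 0.00472 by edgeR), both without overlap.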
